A study of Mus musculus with 8 samples.

Results

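The response of CD25High CD4 T cells to antibodies against CD3 and CD28 was measured on 4 of the 8 arrays of the study, taken by their labels: unstimulated and stimulated cells of wild-type mice (WT), and unstimulated and stimulated cells of mice lacking Mir-21 (KO, Mir-21-/-). The WT mice were littermates of the KO mice, and all cells were sorted by flow cytometry from mesenteric lymph nodes. Stimulated cells received both antibodies for 30 min before the RNA was extracted. The other 4 arrays hold CD4+CD45High cells of the same genotypes and states, and they serve here as a comparison and as part of the estimate of spread. The age, sex and number of mice, the form of the deletion and the CD45 isoform of the sort are not stated in the labels. Each combination was measured once, so the stimulated and the unstimulated array of a genotype form a pair, and the 2 pairs of CD25High cells stand in for replicates. A p-value therefore measures how alike the pairs were and not the spread between mice.

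CD25 is a subunit of the receptor for interleukin 2. It is carried at high density by regulatory T cells, which restrain other immune cells and depend on the transcription factor Foxp3. Antibodies against CD3 and CD28 stand in for antigen and costimulation: they start calcium, MAP kinase and NF-kappaB signals, which first switch on genes that need no new protein, among them transcription factors, cytokines and feedback inhibitors. Regulatory T cells answer the same signals but are known for low cytokine output. miR-21 is a microRNA that rises in activated T cells and lowers the messages that pair with its seed. The KO label names its gene, which gives the mature strands miR-21a-5p and miR-21a-3p. The main strand, miR-21a-5p, is printed here 5′ to 3′ from RefSeq (GRCm38.p6, chr11:86584120-86584141, minus strand) with the seed, bases 2 to 8, in capitals.

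mmu-miR-21a-5p: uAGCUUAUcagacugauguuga

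Values below are log2 intensities of single probes after background correction and quantile normalization, called levels, and a change is the stimulated minus the unstimulated level of a pair. Levels of different probes are not comparable with each other. The sort was visible in Foxp3, whose probe ILMN_2635132 read 11.10 and 11.81 in unstimulated and stimulated WT CD25High cells and 11.24 and 11.51 in KO cells, against 5.47 to 6.25 on the CD45High arrays. Ctla4, an inhibitory receptor of regulatory T cells, read 10.83 to 11.28 on the CD25High arrays. Ikzf2, the regulatory T cell factor Helios, read 7.14 to 8.98 on the CD25High arrays against 4.98 to 5.38 on the CD45High arrays. The 4 arrays thus carried the markers of the sorted population.

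The stimulated KO array stood apart from the others. It had 9208 probes detected at a detection p under 0.01, against 10063 to 10477 on the other CD25High arrays. Across probes, which are not independent replicates, it correlated with the other 7 arrays at a median of 0.888, and each other array did so at 0.9376 to 0.9654. The counts of calls over all probes and all genes are therefore given with and without it, as are those of some gene lists. The other list counts use it, and the WT pair and the KO pair are given apart.

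Across 11047 tested probes, 813 rose and 748 fell with stimulation in CD25High cells, which is 7.36% and 6.77% (limma, Benjamini-Hochberg adjustment over all 11047, threshold 0.05). All 1561 changed the same way in both pairs, but the test could not call a probe whose pairs went opposite ways. A disagreement of the pairs enters the spread, so this count does not measure how well they agreed. The smallest change among the called probes was 0.664. The rises belonged to 710 genes and the falls to 630 genes. Without the stimulated KO array, where the WT pair alone gives the change and the CD45High pairs give the spread, 1186 probes rose (10.7%) and 1322 fell (12%). Of the original calls, 750 of 813 rises and 699 of 748 falls stayed called. The CD45High pairs enter the estimate of spread. With the 4 CD25High arrays alone, 118 rises and 51 falls were called, all of them among the 1561. In bulk RNA of sorted cells, a lower level from fewer cells of a type and from less RNA per cell cannot be told apart.

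Counted by size alone, with no test, 305 probes were at least 2-fold higher in both pairs (2.76%) and 270 at least 2-fold lower (2.44%), 575 in all. Without background correction this total was 188, and with an offset of 50 it was 311. In the WT pair by itself 513 probes were at least 2-fold higher (4.64%) and 638 lower (5.78%). In the KO pair by itself the counts were 721 higher (6.53%) and 1144 lower (10.4%). The KO pair thus had the wider spread of changes, with a standard deviation over probes of 0.8563 against 0.6459 for the WT pair. Over the tested probes, the changes of the pairs correlated at 0.5403, as a description over probes that share their arrays.

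**Figure D1:**
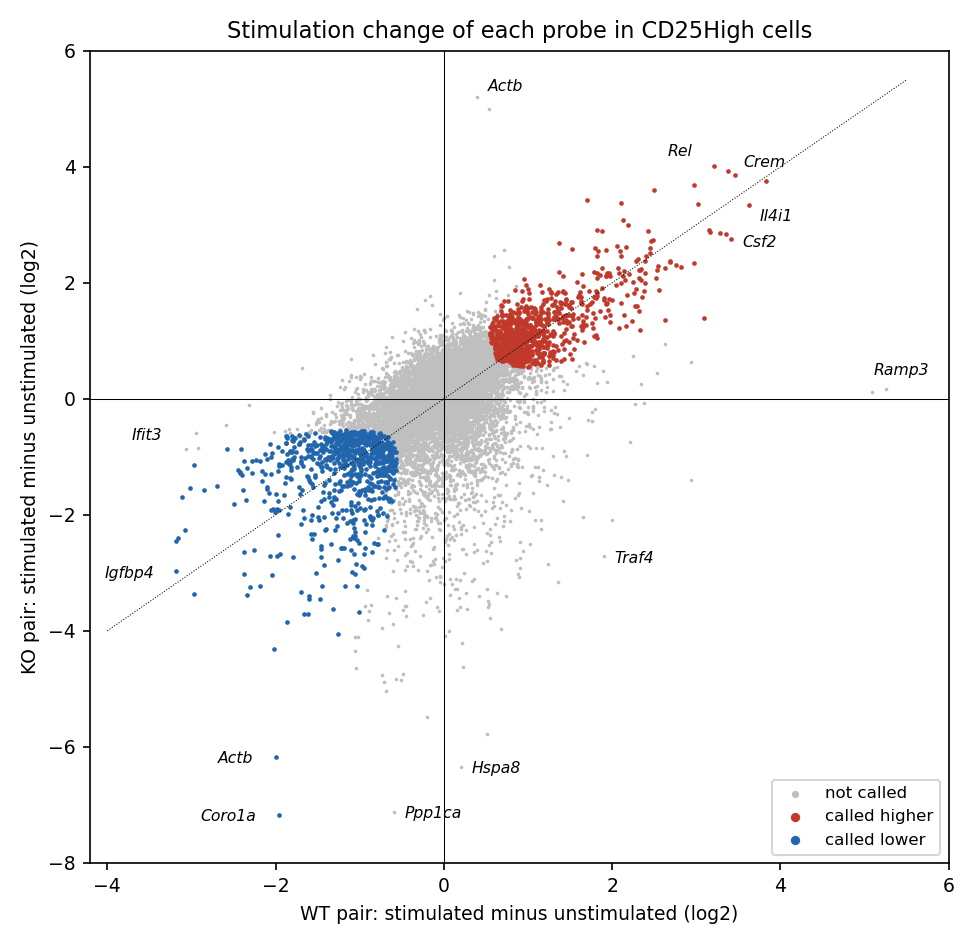
Each point is 1 of 11047 tested probes, with the stimulation change of the WT CD25High pair on the x axis and of the KO CD25High pair on the y axis, both log2 intensity differences of 1 array a side. Red and blue points were called higher (813) and lower (748), the dotted line marks equal change, and the grey points below the x axis near a WT change of 0 are probes that were lower in the KO pair alone, such as Hspa8 and Ppp1ca.

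The 12 genes with the largest rise included Crem, Rel, Nr4a2 and Nr4a3, which encode transcription factors, and Csf2 and Ccl4, which encode a cytokine and a chemokine. Crem, which encodes a cyclic AMP responsive regulator that includes the inducible repressor ICER, went from 5.60 to 9.06 in the WT pair and from 5.26 to 9.12 in the KO pair (probe ILMN_2602899). It rose by 3.66 on the mean of both pairs (SE 0.29, adjusted p 0.00616), and the other Crem probes, ILMN_1242622 and ILMN_2964986, gave pair changes between 3.02 and 3.92. Rel, the NF-kappaB subunit c-Rel, went from 5.47 to 8.68 and from 5.32 to 9.32, a rise of 3.61 (SE 0.29, adjusted p 0.0062). In both genes each stimulated array lay above both unstimulated arrays by more than 3 log2 units. BC050811 had the largest rise, from 5.33 to 9.15 and from 6.20 to 9.97, a mean of 3.79 (SE 0.16, adjusted p 0.00616).

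Nr4a3 and Nr4a2 encode orphan nuclear receptors that are switched on quickly by antigen receptor signals. Nr4a3 probe ILMN_1233670 read 4.57 and 4.48 at rest, where it was not well above background on either array, and 7.93 and 7.32 after stimulation. This was a rise of at least 7.64-fold (adjusted p 0.00676). Both Nr4a3 probes were called, and the one given had the larger mean change. Nr4a2 went from 6.47 to 8.58 in WT and from 4.99 to 8.36 in KO cells, a rise of 2.74 (SE 0.40, adjusted p 0.0181). The resting levels of Nr4a2 differed by genotype more than the stimulated levels did. Nr4a1 did not pass the filter on dim probes, and Egr3 did not either.

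The upstream sequences of Nr4a2, Nr4a3 and Rel are shown as those transcription factor genes among the 12 largest rises for which the table holds a sequence. Each line gives the 250 bases before the start of the RefSeq gene (GRCm38.p6), 5′ to 3′ on the gene's strand, at chr2:57124004-57124253 (minus), chr4:48045055-48045304 (plus) and chr11:23770970-23771219 (minus). Capitals mark TGACG or its reverse complement CGTCA, the half-site of the cyclic AMP response element.

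Nr4a2: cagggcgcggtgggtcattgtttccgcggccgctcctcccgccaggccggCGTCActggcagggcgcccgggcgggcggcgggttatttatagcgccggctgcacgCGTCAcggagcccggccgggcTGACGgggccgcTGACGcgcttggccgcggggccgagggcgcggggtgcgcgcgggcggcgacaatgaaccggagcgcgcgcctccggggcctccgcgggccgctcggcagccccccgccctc

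Nr4a3: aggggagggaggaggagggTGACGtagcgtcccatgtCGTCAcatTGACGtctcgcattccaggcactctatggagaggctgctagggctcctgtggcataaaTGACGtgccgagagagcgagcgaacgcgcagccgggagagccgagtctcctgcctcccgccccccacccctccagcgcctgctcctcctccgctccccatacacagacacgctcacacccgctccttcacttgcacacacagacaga

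Rel: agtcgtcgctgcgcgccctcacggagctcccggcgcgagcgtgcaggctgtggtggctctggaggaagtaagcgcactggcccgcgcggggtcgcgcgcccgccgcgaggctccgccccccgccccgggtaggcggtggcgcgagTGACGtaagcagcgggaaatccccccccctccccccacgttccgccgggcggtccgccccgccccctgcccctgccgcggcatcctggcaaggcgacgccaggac

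Nr4a2 holds the half-site at 200, 144, 123 and 111 bases before the start, Nr4a3 at 231, 213, 205 and 147 bases, and Rel once at 105 bases. Of 27025 genes in the RefSeq promoter table, 19.8% hold at least 1 in the same 250 bases, 4.46% at least 2 and 0.163%, or 44 genes, at least 4. In the longer windows of 300 bases that reach 50 bases past the start, 4 of the 8 most increased genes with a sequence held the half-site (50%, all genes 23%) and 7 of 8 held a loose NF-kappaB motif, GGG and CC with 5 bases between (87.5%, all genes 53.5%). Beside the 3 genes shown, Pdgfa held the half-site at 1 of its starts, whereas Il4i1, Csf2, Cdkn1a and Marcksl1 held none. Among early transcription factor genes, 65.2% of 23 measured genes with a sequence and 66.7% of the 6 of them that were called higher held it, and Fos, Fosb, Junb and Egr2, which were not called, held it too. None of the 8 most increased genes held the full element TGACGTCA or the AP-1 motif TGANTCA. Both strands were searched, the full element contains the half-site, and a match describes letters in the window and not a bound site.

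Among the effector genes, Csf2, which encodes the cytokine GM-CSF, was not well above background at rest, at 4.17 in WT and 4.44 in KO cells. It read 7.58 and 7.19 after stimulation, a rise of at least 6.48-fold (adjusted p 0.00616). Ccl4, the chemokine MIP-1 beta, went from 5.73 to 8.88 and from 5.51 to 8.43, a rise of 3.04 (SE 0.17, adjusted p 0.00616). Il4i1, a secreted L-amino acid oxidase, went from 7.12 to 10.75 and from 7.29 to 10.64, a rise of 3.49 (SE 0.18, adjusted p 0.00616). Cdkn1a, the cell cycle inhibitor p21, went from 5.17 to 8.33 and from 4.73 to 7.60 with probe ILMN_2634083, a rise of 3.02 (SE 0.17, adjusted p 0.00616). Over the 3 Cdkn1a probes the mean change ran from 0.54 to 3.02, and 2 of them were called. With the probes given for these genes too the stimulated and unstimulated arrays did not overlap. Pdgfa, a growth factor chain, rose by 3.07, Marcksl1, an actin-binding MARCKS relative, by 3.05 with probe ILMN_1250438, and the pseudogene Pisd-ps2, whose probe may also bind related copies, by 3.33. The other Marcksl1 probes, ILMN_1215632 and ILMN_2617162, changed by 1.49 and 1.76 in the WT pair and by -0.33 and -0.22 in the KO pair and were not called. The resting level of Pdgfa in KO cells was not well above background. The 12 largest rises were called with the CD25High arrays alone as well, and also without the stimulated KO array.

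The falls were of similar number, and 7 of the 12 largest were called with the CD25High arrays alone. Igfbp4, an insulin-like growth factor binding protein of naive T cells, went from 10.11 to 6.93 in WT and from 9.99 to 7.01 in KO cells, and fell by 3.08 (SE 0.18, adjusted p 0.00616). Itgae, the integrin chain CD103 that marks a subset of regulatory T cells, went from 8.69 to 6.35 and from 8.91 to 5.53 with probe ILMN_2628900 and fell by 2.86 (SE 0.27, adjusted p 0.00763). All 5 Itgae probes were called lower, with mean changes from -1.43 to -2.86. Dtx1, a Notch pathway ubiquitin ligase, went from 8.67 to 5.49 and from 9.42 to 6.96 and fell by 2.82 (SE 0.26, adjusted p 0.00763). Il6ra, the interleukin 6 receptor chain, went from 8.07 to 5.77 and from 7.64 to 4.39, where the last array was not well above background. In each of these genes both stimulated arrays lay below both unstimulated ones.

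Several of the large falls were larger in the KO than in the WT pair, although 6330500D04Rik changed by -2.97 and -3.36 (adjusted p 0.00621). Its level on the stimulated KO array was not well above background. Coro1a, the actin regulator coronin 1A, went from 11.95 to 9.99 in WT and from 11.59 to 4.41 in KO cells with probe ILMN_2733793, a mean fall of 4.57 (SE 1.10, adjusted p 0.0479). The other Coro1a probes changed by -0.85, -2.50 and -4.64 in the KO pair. Ptprcap, which encodes a protein associated with the phosphatase CD45, went from 9.96 to 7.95 and from 10.12 to 5.82, a mean fall of 3.16 (SE 0.51, adjusted p 0.0214). Sigirr, an inhibitory receptor of the interleukin 1 family, went from 8.45 to 6.59 and from 8.21 to 4.35. Tnfaip8l2, the immune brake TIPE2, went from 8.13 to 6.47 and from 7.88 to 4.16. For these genes, Coro1a included, the calls at the adjusted threshold were absent with the CD25High arrays alone and present without the stimulated KO array.

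**Figure D2:**
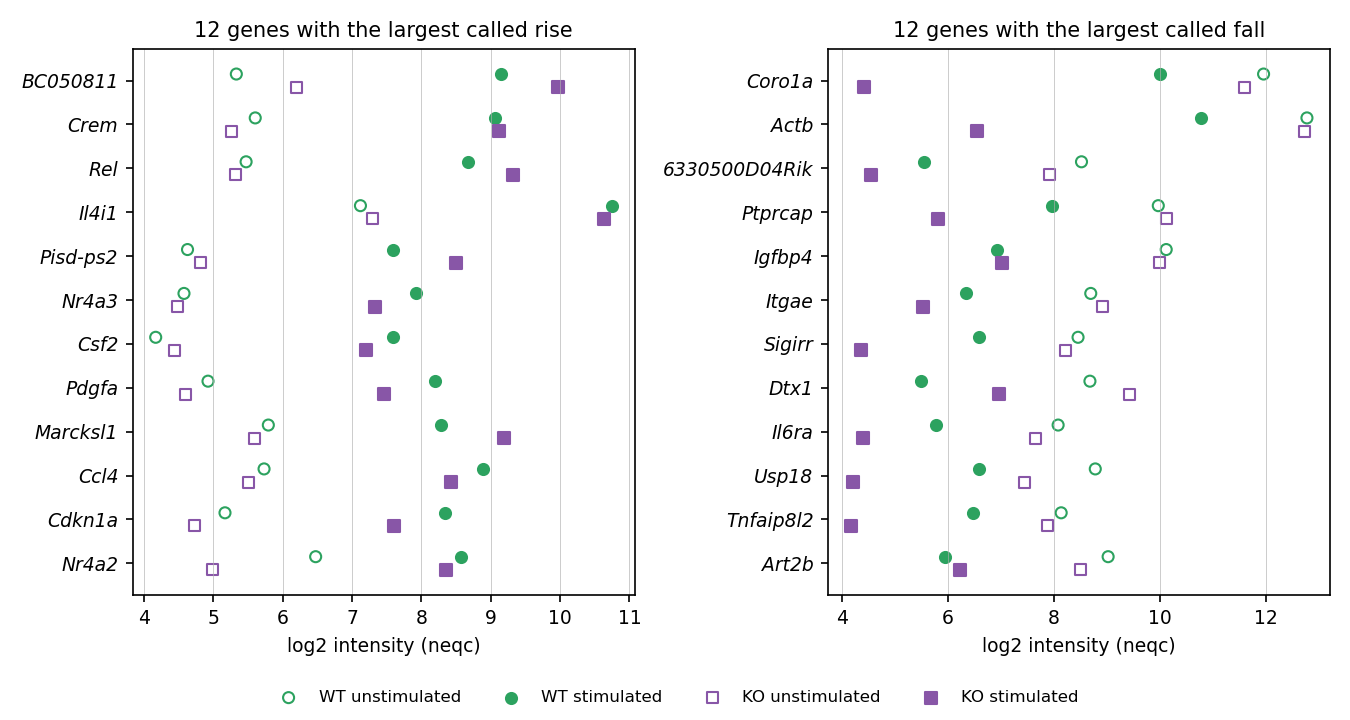
Log2 intensity on each of the 4 CD25High arrays of the 12 genes with the largest called rise (left) and the 12 with the largest called fall (right), 1 probe a gene. Open symbols are unstimulated and filled symbols stimulated arrays, with circles for WT and squares for KO, and no error bar is drawn because each symbol is 1 array. The filled squares of Coro1a (4.41) and Actb (6.54) lie far below the filled circles, whereas those of Igfbp4 lie together.

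Gene groups are described by the brightest tested probe of each gene. Other probes of a gene could differ. Lif, Pfn1, Bcl2l11 and Pecam1 each also had a probe that was not called, and Dusp2 and Ifit3 a probe that was called lower. With the CD25High arrays alone, fewer genes of the lists below were called. That fit called 6 rises of immediate early factors, 7 of cytokines and chemokines, 4 of the NF-kappaB list and 2 of surface receptors. It called none of the interferon-stimulated, heat shock, translation factor, ribosomal protein, oxidative phosphorylation or cell cycle genes. With all arrays, 648 of the 8104 genes measured by their brightest probe were called higher (8%) and 527 lower (6.5%). Their median change was 0.0383. Without the stimulated KO array the counts were 906 higher (11.2%) and 994 lower (12.3%).

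Among immediate early transcription factors, 8 of 29 measured genes rose and 1 fell, with a median change of 0.31. Beside Crem and the Nr4a genes, Irf4, which drives effector programs in regulatory and other T cells, went from 8.81 to 11.37 and from 8.89 to 10.76 and rose by 2.21 (SE 0.23, adjusted p 0.00868). Bhlhe40, a repressor tied to cytokine production, rose by 2.34, and Atf3, a stress-induced leucine zipper factor, by at least 4.23-fold. Ier3, an early survival gene, rose by 2.03 (adjusted p 0.0499), and the small Maf factor Maff was called higher as well, with pair changes of 1.29 and 1.61. The fall was in Jund, at -1.10 and -1.78. The classical serum-response genes were not called. Fos read 10.36 and 9.75 in the WT pair and 10.25 and 10.12 in the KO pair. Egr1 read 11.64 and 11.26 in the WT pair and 11.14 and 11.43 in the KO pair. Junb changed by -0.09 and 0.36, Jun by -0.25 and -0.48, and Egr2 by 0.46 and 0.18. Fosb changed by -0.16 in the WT and 1.78 in the KO pair, where its resting level was 6.73 against 8.35 in WT cells.

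Of 24 genes of the NF-kappaB pathway and its feedback, 11 rose and 1 fell, with a median change of 0.818. Besides Rel the rises included the subunit genes Nfkb1, Nfkb2 and Relb and the inhibitors of the I-kappaB family Nfkbib, Nfkbid and Nfkbie. Nfkb2 went from 5.37 to 7.37 and from 5.89 to 7.61, a rise of 1.85 (SE 0.17, adjusted p 0.00763). Relb went from 7.63 to 9.56 and from 7.52 to 9.15, a rise of 1.78, and Nfkb1 rose by 1.65. Traf1, an adaptor of TNF receptors, rose by 1.62. The inhibitors Tnfaip3 and Nfkbia missed the threshold: Tnfaip3 read 9.94 and 10.66 in WT and 8.26 and 10.82 in KO cells (adjusted p 0.128), and Nfkbia changed by 0.67 and 1.57 (adjusted p 0.0756). As with Fosb, the resting KO level was the low one.

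Of 25 cytokine and chemokine genes, 12 rose and none was called lower, with a median change of 0.749. Without the stimulated KO array 18 rose and 1 fell. Areg, an epidermal growth factor family ligand made by tissue regulatory T cells, went from 6.26 to 8.38 and from 4.67 to 7.75, a rise of 2.61 (SE 0.26, adjusted p 0.00784). Xcl1, the chemokine lymphotactin, went from 5.31 to 7.24 and from 5.03 to 7.16, a rise of 2.03, and Lif, a cytokine of the interleukin 6 family, rose by at least 3.51-fold. Tnf rose by 1.52 (SE 0.24, adjusted p 0.0211). The chemokine Ccl3 and the cytokines Il3, Il5 and Il4 were called higher too, with pair changes of 1.88 and 1.92, 1.46 and 1.70, 1.36 and 1.51, and 0.66 and 0.68. Il10, a suppressive cytokine of regulatory T cells, went from 8.45 to 9.11 and from 7.59 to 8.62, a rise of 0.85 (SE 0.18, adjusted p 0.0363). Ifng changed by 0.26 and 0.98 and was not called. Il2 is not among the symbols of the array table. Ltb, the membrane cytokine lymphotoxin beta, changed by -0.69 in the WT and -5.04 in the KO pair and was not called.

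Surface receptors of activated T cells had 9 of 23 genes higher and none called lower, with a median change of 0.732. Cd83, a surface marker of activation, went from 9.31 to 11.70 and from 9.41 to 11.58, a rise of 2.28 (SE 0.19, adjusted p 0.0062). Tnfrsf9, the costimulator 4-1BB, went from 7.0 to 10.10 in WT and from 7.51 to 8.91 in KO cells, a rise of 2.25 (SE 0.39, adjusted p 0.0243). Tnfrsf4, the costimulator OX40, rose by 1.32, the adhesion receptor gene Icam1 by 1.71, and Il2ra, the gene of CD25 itself, by 1.20 (SE 0.23, adjusted p 0.0282). Il2ra read 8.28 and 9.83 in the WT pair and 8.61 and 9.46 in the KO pair. Cd69, an early activation receptor, read 12.39 and 12.17 in the WT pair and 11.28 and 12.44 in the KO pair and was not called.

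Regulators of signal strength split both ways. Of 25 MAP kinase phosphatases and other brakes, 4 rose and 2 fell, with a median change of -0.121. Dusp4, a nuclear MAP kinase phosphatase, went from 7.13 to 9.31 and from 6.60 to 9.59 with probe ILMN_2689731, a rise of 2.59 (SE 0.29, adjusted p 0.0104). Over the 3 Dusp4 probes the mean change ran from -0.04 to 2.59, and 2 of them were called. Cblb, a ubiquitin ligase that restrains T cell activation, rose by 1.56. Dgkz, a kinase that removes diacylglycerol, went from 10.58 to 9.09 and from 10.73 to 8.64 and fell by 1.79 (SE 0.20, adjusted p 0.0108). Rgs3, a brake on G protein signals, fell by 2.03. Dusp1 and Dusp2, which encode other MAP kinase phosphatases, changed by -0.66 and 0.17, and by -0.51 and -0.54, and were not called.

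Of 25 genes of the T cell receptor complex and its adaptors, 7 fell and 2 rose, with a median change of -0.667. None of these 9 was called with the CD25High arrays alone. Cd3e, a receptor chain, fell by 1.09 in the WT pair and 0.90 in the KO pair. Prkcq, the kinase that links the receptor to NF-kappaB, fell by 1.19 (SE 0.18, adjusted p 0.0191), and Csk, which keeps the receptor kinases off, by 1.04. The list thus held receptor chains and positive and negative regulators among its falls.

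Naive and quiescence genes had 7 of 29 lower and 5 higher, with a median change of -0.53. Without the stimulated KO array 13 fell and 5 rose. Beside Igfbp4 and Il6ra, Ddit4, an inhibitor of mTOR complex 1, went from 10.50 to 8.65 and from 10.49 to 8.50 and fell by 1.92 (SE 0.21, adjusted p 0.00942). Txnip, which limits glucose uptake, fell by 1.78. The members that rose went against the list's name: Ccr7, the chemokine receptor for lymph node entry, went from 7.56 to 9.76 and from 8.0 to 10.15, a rise of 2.18 (SE 0.17, adjusted p 0.00616). Il7r, the interleukin 7 receptor, changed by -0.07 and 0.05, and Klf2, a quiescence factor, by -0.49 and 0.36.

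The regulatory T cell list split, with 5 of 23 genes higher and 7 lower and a median change of -0.25. Swap70, a signalling protein that acts on Rac, went from 8.58 to 10.89 and from 8.61 to 10.70, a rise of 2.20 (SE 0.17, adjusted p 0.00616), and Ccr8, a chemokine receptor of tissue regulatory T cells, rose by 1.66. Izumo1r, which encodes folate receptor 4, went from 8.70 to 6.32 and from 8.92 to 7.34 and fell by 1.98 (SE 0.23, adjusted p 0.0115). Nrp1, the receptor neuropilin 1, went from 10.41 to 8.49 and from 10.49 to 9.34 and fell by 1.53. The defining factor Foxp3 gave differing answers by probe. Probe ILMN_2635132 changed by 0.71 and 0.27 (adjusted p 0.153), probe ILMN_2917180 rose in both pairs, by 0.93 on the mean, and was called, and probe ILMN_1225330 changed by 0.08 in the WT and -3.38 in the KO pair. Ikzf2 changed by -0.23 and -1.85, and Ctla4 by 0.17 and 0.46, and neither was called.

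Genes of the actin cortex and cytoskeleton had 10 of 27 lower and 1 higher, with a median change of -0.724, and the same counts without the stimulated KO array. With the CD25High arrays alone 2 of these falls were called and no rise. Rac2, a small GTPase of blood cells, went from 11.29 to 9.23 and from 11.15 to 9.23 and fell by 1.99 (SE 0.16, adjusted p 0.0062). Cap1, a cyclase-associated actin regulator, fell by 1.99, and Pfn1, the actin monomer protein profilin, by 1.73. Vcl, the adhesion protein vinculin, was the member that rose, by 1.23 and 1.31 in the pairs.

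Genes of Myc activity and ribosome assembly had 10 of 26 higher and 1 lower, with a median change of 0.471. Odc1, the first enzyme of polyamine synthesis, changed by 1.96 and 2.16 and ended at 12.19 and 12.17, a rise of 2.06 (SE 0.18, adjusted p 0.00644). Nop2, a ribosomal RNA methyltransferase, rose by 1.55, and Srm, spermidine synthase, by 1.40, with the probes ILMN_2688383 and ILMN_2809611. Other probes of both genes gave different values: Nop2 probe ILMN_2608229 changed by 1.02 in the WT and -0.84 in the KO pair, and Srm probe ILMN_2630641 by 0.89 and -3.08, and neither was called. Mxd4, an antagonist of Myc, was the member that fell, by at least 2.73-fold. Myc itself read 5.61 and 7.31 in the WT pair and 5.38 and 4.41 in the KO pair, so its pairs went opposite ways and it was not called.

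Survival and death genes had 5 of 24 higher and none called lower, with a median change of 0.491. Gadd45b, a stress-induced survival gene, went from 9.56 to 11.25 and from 7.37 to 10.79, a rise of 2.56 (SE 0.61, adjusted p 0.0466). The antiapoptotic Bcl2a1d went from 6.01 to 7.95 and from 5.84 to 8.01, a rise of 2.06 (SE 0.17, adjusted p 0.0062). The proapoptotic genes Bcl2l11 and Fas rose by 1.10 and 1.06. Pro- and antiapoptotic members thus both rose.

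The interferon-stimulated genes had different values in the 2 pairs. With both pairs, 5 of 25 fell and 1, the chemokine gene Cxcl10, rose, with a median change of -0.531. The WT pair had 12 genes at least 2-fold lower and the KO pair had 4, and without the stimulated KO array 14 were called lower. Over all 8104 genes, 505 were at least 2-fold lower in the WT pair and 658 in the KO pair. Ifit3, an antiviral protein, went from 10.04 to 6.97 in WT and from 9.32 to 8.46 in KO cells (adjusted p 0.0506). Rsad2, the antiviral enzyme viperin, went from 8.07 to 5.13 in WT and from 7.42 to 6.83 in KO cells (adjusted p 0.0721). Oas2, which senses double-stranded RNA, went from 8.17 to 5.24 in WT and from 7.74 to 6.89 in KO cells (adjusted p 0.0519). Ifit2 and Ddx58, the RNA sensor RIG-I, fell in both pairs, by 1.61 and 1.47 on the mean. Other members were lower in the KO pair: Ifi35 changed by -0.47 in WT and -2.19 in KO cells (adjusted p 0.0747). For Usp18, a protease that removes ISG15, probe ILMN_3054914 changed by -2.18 and -3.23 and probe ILMN_3131679 by -1.72 and -0.62, and both were called. In both CD45High pairs the median of these genes was low as well, at -0.823 for WT and -0.736 for KO cells, against -0.783 and -0.312 in the CD25High pairs. The difference between the genotypes has no replicate and was not tested.

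Of 38 cytosolic ribosomal protein genes 1 was called, the falling Rpl22, and the median change was -0.0851. Of 32 oxidative phosphorylation genes 1 was called, the falling Atp5c1, and the median change was -0.178. Cell cycle and replication genes had 2 of 26 lower, Tk1 and Ccnd3, with a median change of 0.0446. Heat shock and chaperone genes had 3 of 22 higher, Hspa4, Hspa9 and Cct8, with a median of 0.37, and translation factors had 3 of 26 higher and 1 lower, with a median of 0.217. Among the translation factors, 8 were at least 2-fold lower in the KO pair and none in the WT pair, against 658 and 505 of all 8104 genes.

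**Figure D3:**
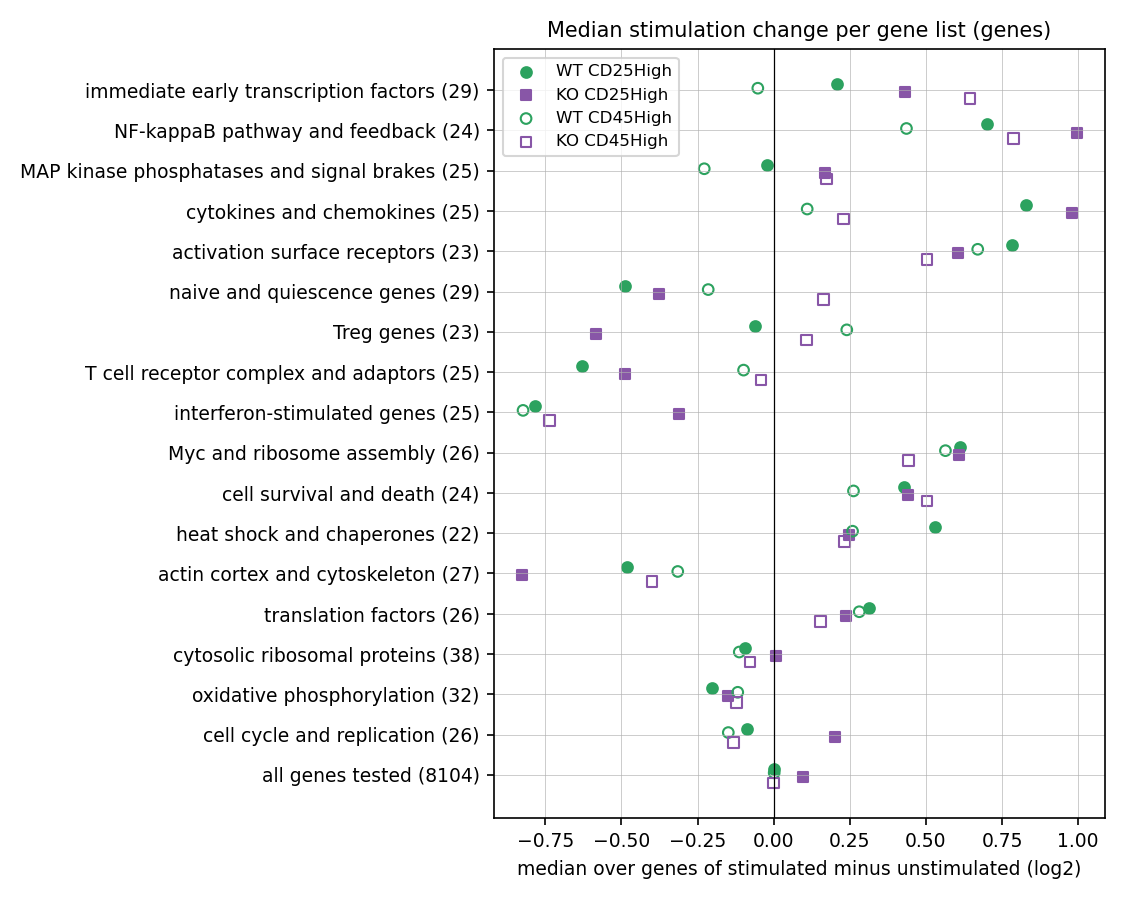
The median stimulation change over the measured genes of each list (log2, number of genes in brackets), for the 2 CD25High pairs (filled) and the 2 CD45High pairs (open), with circles for WT and squares for KO. NF-kappaB genes and cytokines lie well to the right of 0 in CD25High cells, at pair medians of 0.702 to 0.996, while the row of all 8104 genes lies at 0 for WT and 0.0978 for KO CD25High cells.

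The WT pair by itself was led by Ramp3, which encodes a receptor-modifying partner of calcitonin-type receptors. Ramp3 was not well above background at rest, at 4.65, and read 9.90 after stimulation, at least 36.9-fold higher (probe ILMN_2749052). In KO cells the same probe read 4.44 and 4.60. The other Ramp3 probes, ILMN_3152486 and ILMN_3073644, gave 5.09 and 2.27 in the WT pair and 0.11 and -0.09 in the KO pair, and in CD45High cells the first probe changed by 2.95 in WT and 3.39 in KO cells. Of the 4 stimulated arrays, the KO CD25High array was thus the one on which Ramp3 was not raised. Of the 513 probes at least 2-fold higher in the WT pair, 449 changed the same way in the KO pair and 305 by at least 2-fold. Of the 638 at least 2-fold lower, 620 changed the same way and 270 by at least 2-fold. Beside Igfbp4 and Dtx1, the lowest WT values came from Phf11 (-3.11), Art2b, an ADP-ribosyltransferase of the T cell surface (-3.08), and the interferon-stimulated genes.

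The KO pair by itself held many low values that the WT pair did not. Of its 1144 probes at least 2-fold lower, 270 were at least 2-fold lower in the WT pair and 601 changed by less than 1.5-fold there. Of its 721 probes at least 2-fold higher, 196 changed by less than 1.5-fold in the WT pair. Hspa8, the constitutive chaperone Hsc70, read 12.63 and 12.83 in the WT pair and 11.73 and 5.39 in the KO pair. Ppp1ca, a protein phosphatase 1 subunit, read 11.78 and 11.19 in the WT pair and 11.44 and 4.31 in the KO pair. Eif5a, a translation factor, read 10.94 and 11.45 in the WT pair and 10.43 and 4.65 in the KO pair, and Msn, the cortex protein moesin, 10.64, 10.44, 9.90 and 4.41 in the same order. In all these cases the stimulated KO array alone was low. In the opposite direction, probes past 2-fold in both pairs with opposite signs numbered 25, and all were higher in the WT and lower in the KO pair, among them probe ILMN_2472444 of Traf4, a TNF receptor adaptor, at 1.90 and -2.72. Traf4 probe ILMN_2472451 gave 1.99 and -2.08, whereas ILMN_1219701 and ILMN_2801652 were called higher, with rises of 1.43 and 1.40 on the mean and about the same in both pairs.

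Probes of 1 gene disagreed with each other in the KO pair. For Actb, beta actin, probe ILMN_2617433 read 12.77 and 10.78 in the WT pair and 12.72 and 6.54 in the KO pair. Probe ILMN_2846865 read 7.90 and 8.30 in the WT pair and 7.83 and 13.03 in the KO pair. The other Actb probes changed in the KO pair by 0.77 (ILMN_1377923), 4.99 (ILMN_2588055) and -1.59 (ILMN_2698799). The first and the last of the 5 named here fell past the threshold (adjusted p 0.0395 and 0.022), and the others were not called, so beta actin has no single answer. H2-Ab1, an MHC class II chain, changed in the KO pair by -4.62 with 1 probe and by 0.98 and 0.75 with the others. Over 2103 genes with several tested probes, the range of changes within a gene had a median of 0.577 in the KO CD25High pair, against 0.276 in the WT CD25High pair and 0.233 and 0.319 in the CD45High pairs. The range passed 2 log2 units in 186 genes (8.84%) in the KO CD25High pair and in 4, 1 and 6 genes in the other 3 pairs. Stimulation cannot be told apart here from what else differed on that array, since the combination was measured once. Probes detected on the 3 other CD25High arrays and not on the stimulated KO array numbered 1029, against 62 to 222 for each of the other arrays. Of these 1029, 23 had levels above 8 on all 3 other arrays, and none of the other arrays had such a probe.

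**Figure D4:**
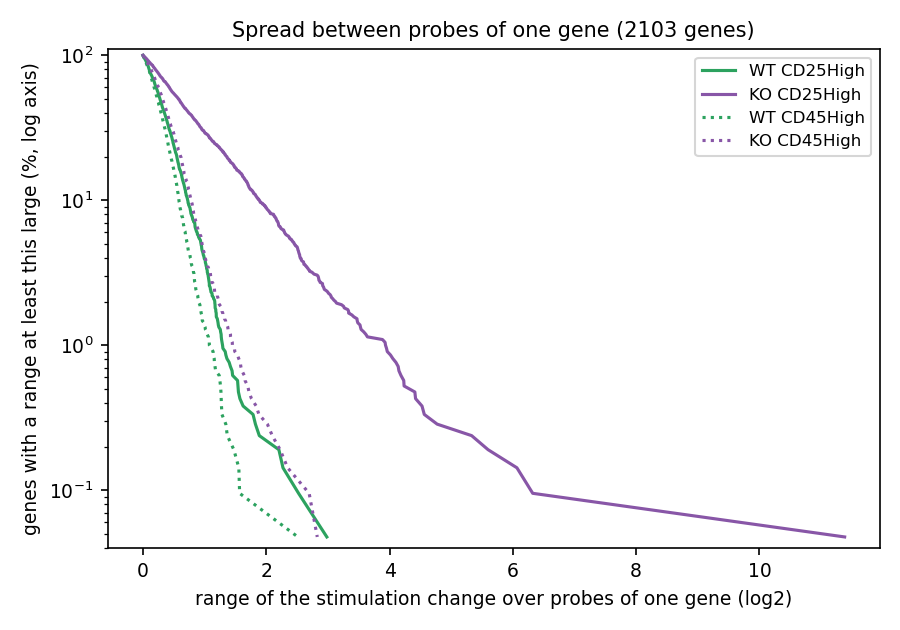
For 2103 genes with several tested probes, the share of genes (y axis, percent, log scale) whose stimulation change ranges over their probes by at least the log2 value on the x axis, with 1 line for each pair. The solid purple line of the KO CD25High pair lies above the others, with 8.84% of genes past a range of 2, against 0.19% for the WT CD25High pair.

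Most probes called in CD25High cells changed in the same direction in CD45High cells. Of the 813 probes called higher in CD25High cells, 686 were higher in both CD45High pairs. Of the 748 called lower, 663 were lower in both. The same model called 104 probes in CD45High cells, of which 72 were among the rises and 18 among the falls of CD25High cells. The matching shares of all tested probes were not computed, so no excess over them is shown. The CD45High pairs enter the spread, so a call favours probes on which those pairs changed alike. Across the tested probes, the WT CD25High changes correlated with the WT and KO CD45High changes at 0.7011 and 0.6687. The KO CD25High changes did so at 0.3297 and 0.4286. The difference between the populations was tested in the same model, and 0 probes passed (0%), with a lowest adjusted p of 0.296. At an unadjusted p under 0.05 there were 1047 probes, where 0.05 of the tested probes is 552.35. Probes share their arrays and the spread of such a count was not assessed, so no excess over chance is shown. Without the stimulated KO array 204 passed (1.85%), of which 113 had the more positive and 91 the more negative change in CD25High cells.

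By value, 181 of the 11047 tested probes changed more than 2-fold more positively in CD25High cells, with no overlap of the pairs. Another 334 changed more than 2-fold more negatively. Both counts use the stimulated KO array, and the number that chance gives was not tested. Pdgfa had the most positive difference. It went from 4.92 to 8.20 and from 4.59 to 7.46 in CD25High cells, while its changes in CD45High cells were -0.43 and -0.07, a difference of 3.32 (adjusted p 0.3). Csf2, with its rise in CD25High cells of at least 6.48-fold, changed by 0.02 and -0.07 in CD45High cells (adjusted p of the difference 0.31), and Areg changed by 2.13 and 3.08 against 0.08 and 0.06. Gls2, a mitochondrial glutaminase, was not well above background at rest in CD25High cells and rose there by at least 4.37-fold (adjusted p 0.00616). Scin, the actin-severing protein scinderin, changed by 2.63 and 2.25 against 0.15 and 0.21, and Dusp4 probe ILMN_2870965 by 1.88 and 2.89 against 0.05 and 0.20. On the CD45High arrays none of these 6 probes was well above background in either state, so the changes near 0 there are differences between background readings, and the differences between the populations are not exact. The resting levels of Pdgfa, Areg and this Dusp4 probe in KO and of Scin in WT CD25High cells were not well above background either. The brighter Dusp4 probe ILMN_2689731 changed by 0.62 and 1.43 in CD45High cells. Hspa1a, an inducible chaperone, differed in another way, with 0.75 and 0.12 in CD25High cells and -1.74 and -1.94 in CD45High cells. On the other side, Itgae probe ILMN_2628900 changed by -2.34 and -3.38 in CD25High cells and by -0.05 and -0.22 in CD45High cells. The brighter Itgae probe ILMN_1217629 differed less, with -1.82 and -1.18 against -0.03 and -0.68. The other probes with the most negative differences, those of Coro1a, Eif5a, Ppp1ca, Actb, Msn, Trpc4ap and Cd247, had a far larger change in the KO than in the WT pair.

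**Figure D5:**
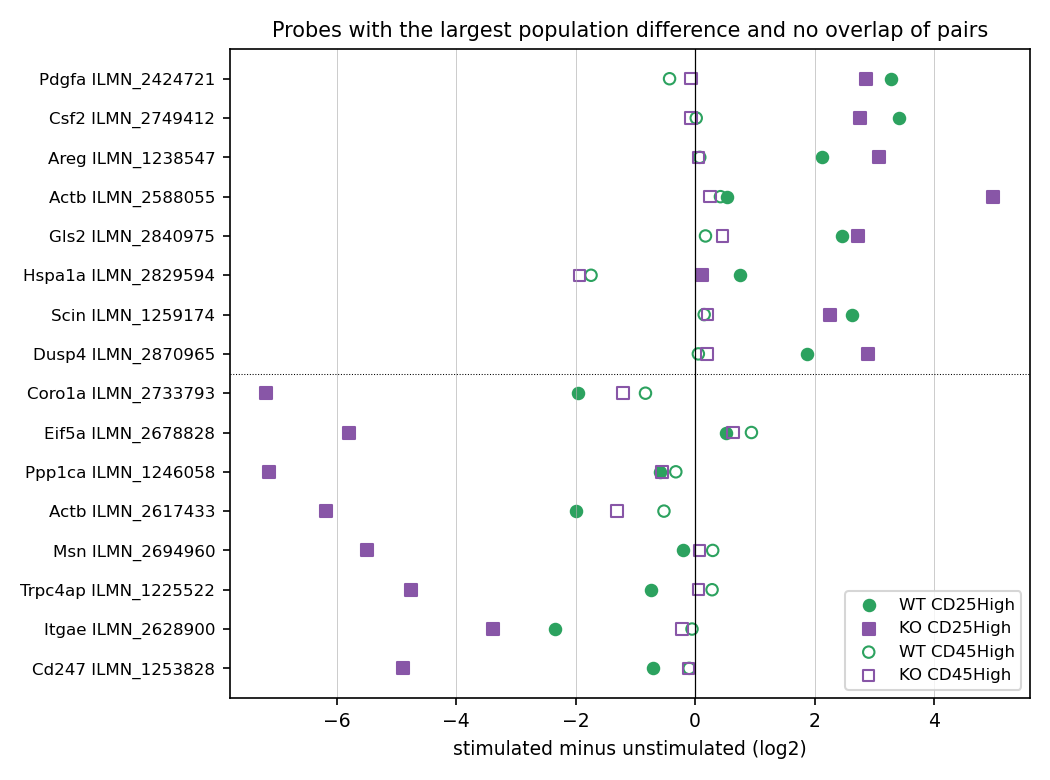
Stimulation changes (log2, x axis) of the 8 probes with the most positive (above the dotted line) and the 8 with the most negative difference between CD25High (filled) and CD45High cells (open), among probes with no overlap of the pairs. Circles are WT and squares KO pairs, each 1 array a side. Pdgfa, Csf2, Areg, Gls2, Scin and Dusp4 have both CD25High pairs far to the right of both CD45High pairs, where these 6 probes were not well above background, while Eif5a, Ppp1ca and Msn have only the KO CD25High square far to the left.

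Markers of other cell types were present at some level. Of 16 B cell markers with a probe, 8 were detected on all 4 CD25High arrays, and the B cell factor Pax5 and the receptor Cr2 on none. The log2 of the summed intensity of 14 measured B cell markers was 12.21 and 12.60 in the WT pair and 12.11 and 12.73 in the KO pair. Of these 14, 2 were called higher, among them Ebf1, a B cell transcription factor, which changed by 0.76 in the WT pair and 0.89 in the KO pair. Of the myeloid and dendritic markers, Cd68, Cst3, Ctss, Fcer1g and Lyz1 were detected on all 4 CD25High arrays, and Itgam, Itgax, Cd14 and Adgre1 on none. For 9 myeloid and dendritic markers the sums were 11.28 and 10.78 in the WT pair and 11.29 and 10.78 in the KO pair, and none was called. Without the stimulated KO array 1 of these 9 was called higher and 1 lower. S100a8, a calcium-binding protein of neutrophils, read 4.38 and 4.16 at rest, not well above background, and 7.01 in WT and 5.11 in KO cells after stimulation (adjusted p 0.0987). Lyz2, the lysozyme of macrophages and neutrophils, went from 8.35 to 7.62 in WT and from 8.23 to 4.27 in KO cells, where the last array was not well above background (adjusted p 0.11). For 7 CD8 T and NK markers the sums were 10.71 and 10.56, and 11.09 and 10.92, with Klrd1 called higher and Nkg7 lower. Cd8a, Eomes and Ncr1 were not detected, but Cd8b1, Ccl5, Klrd1, Nkg7 and Prf1 were detected on all 4 CD25High arrays. Cd8b1 probe ILMN_2741169 read 9.34 to 10.05 there. The erythroid gene Hba-a1 read 7.57 and 8.87, and 8.18 and 9.26, and was called higher. The endothelial gene Pecam1, which T cells also express, read 8.38 and 7.51, and 8.05 and 5.98, and was called lower. Their part in the changes above was not tested.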

How the data were processed

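Messenger RNA of sorted mouse CD4 T cells was measured on 8 Illumina MouseRef-8 v2.0 beadchips, per the labels' protocols from Trizol-extracted total RNA labelled with biotin. The deposited table holds, per the file headers, for 25697 probes the mean intensity of the beads (linear), its standard error, the bead number and a detection p-value. A second deposited table gives log2 values for the 14533 probes that reach a detection p under 0.05 on any array. They correlated at 0.9999993 or more with the values computed here, differed by at most 0.0626, had a median of 5.81 on every array and were not centred. The submitters' processing notes name limma, with no version, and the scanner software is not stated.

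Intensities were passed through neqc (limma 3.58.1, R 4.3.3), which corrects the background by normexp, adds an offset of 16 and equalises quantiles. A probe was tested where 2 or more of 8 arrays had a detection p under 0.01, which left 11047 probes for 8104 genes. Because arrays were normalized to 1 distribution, changes are relative to all probes. lmFit and eBayes were fitted with 4 blocks of genotype by population and a stimulation effect per population, which left 2 residual degrees of freedom. Pairs come from the factorial labels, not from shared mice. The threshold for a call was 0.05 after Benjamini-Hochberg adjustment over the tested probes. The script was tested on simulated data. Median bead numbers were 38 to 40 per probe, and precision is limited by having few arrays.

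Named genes were chosen by rule: 12 largest called rises and falls, 10 largest changes of the WT pair, 8 largest differences between the pairs and between the populations in each direction, up to 6 members of each gene list and a fixed set of early genes. Other genes of a list are named by their call. A gene in a list is its brightest tested probe. Where a probe was above background on no array of the lower state, its values there were raised to at least that array's lowest detected value and folds from them are written "at least". Symbols were updated through the RefSeq gene table of GRCm38.p6 (20733 current, 3872 older, 1092 not matched). Some genes of the lists are counted but not reported here by name. The groups and gene lists were chosen with earlier results of these data known. Background correction, offset, normalization, filter, deposited values, arrays in the fit, array weights, variance prior, block, probes per gene and each array left out were varied.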

Additional observations from a re-analysis of the deposited data

Results flagged for a closer look

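The Pdgfa probe ILMN_2424721 changed by 3.28 and 2.87 in the CD25High pairs and by -0.43 and -0.07 in the CD45High pairs. Both CD25High changes were above 0 and both CD45High values were below 0, the KO one only just, a difference of 3.32 whose test across all probes did not pass (limma, adjusted p 0.3). The probe was not well above background on any CD45High array or on the unstimulated KO CD25High array, so neither the signs in CD45High cells nor the size of the difference is firm.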

How the results depend on the processing

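The count of probes called in CD25High cells was 1561 with all 8 arrays and the replicate block. It was 1506 with no replicate block (881 higher, 625 lower), 901 with no filter on dim probes, 596 with array weights and 169 with the CD25High arrays alone. Leaving out each array in turn gave 169 to 3969: 169 without any CD45High array, 2508 without either KO CD25High array and 3969 without either WT CD25High array, where the other pair alone gave the change. The other alternatives gave 1529 to 2074. The difference between the populations was called in 0 probes, in 2 with median scaling and in 0 to 2011 with an array left out. The counts of probes at least 2-fold changed fell without background correction and with an offset of 50: from 575 to 188 and 311 for both pairs, from 1151 to 402 and 636 for the WT pair, and from 1865 to 583 and 944 for the KO pair. Averaging the tested probes of a gene turned the 2 called Actb probes, which then gave 0.0956 (adjusted p 0.821). The other named probes that were called, 93 of 95, kept their direction under every alternative run. Leaving out an array or changing the filter or the fit could not reverse them, since both pairs of a called probe changed the same way. Only background correction, offset, normalization, deposited values and averaging of probes could have done so. The causes were not tested, apart from fewer arrays in the fit. The pairing follows the labels, and the WT and KO changes correlated at 0.5403 in CD25High and 0.7198 in CD45High cells across probes.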

Other observations

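Gene families grouped by symbol after the values were seen gave further values, with no test of a family. Over all 8104 genes 8% were called higher and 6.5% lower, and nothing here is shown to be particular to a family. Of 26 nuclear pore and transport genes, 5 rose and 1 fell, and Nup98, a pore component, went from 6.57 to 8.20 in WT and from 6.46 to 8.15 in KO cells with probe ILMN_2904083. The importin Kpna1 went from 7.53 to 9.28 and from 7.54 to 8.85. Of 15 kinesin genes 5 rose and none was called lower, with changes from 0.61 to 1.45, the highest in the KO pair of Kif23. Of 17 genes of the Arhgap family of GTPase activators 6 fell and 1 rose, and Arhgap9 went from 9.51 to 7.84 and from 9.28 to 7.37.

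Of 16 TNF receptor superfamily genes 6 rose and 1 fell. Among the rises was Cd40, best known as the costimulator of B cells and dendritic cells, which went from 5.93 to 8.32 and from 5.89 to 8.26 with probe ILMN_3115796. Of 19 H2 genes 4 fell, and H2-Oa, which tunes class II peptide loading, went from 7.55 to 5.49 and from 7.46 to 4.74. Of 141 solute carriers 13 rose and 16 fell. Slc2a6, a hexose transporter family member, went from 5.32 to 7.61 and from 5.51 to 7.89, and Slc19a2, a thiamine transporter, from 6.20 to 8.59 and from 6.08 to 8.08. Of 69 mitochondrial ribosomal protein genes 0 were called with all arrays, and 3 rose and 5 fell without the stimulated KO array.

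Of the genes with several probes, Mterf4 was called higher with probe ILMN_1218949 (1.30 and 0.71) and lower with probe ILMN_2679695 (-0.59 and -1.52).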
